A study of Gallus gallus with 6 samples.

Results

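The resting uterovaginal junction of the hen is described here from the 3 libraries of breeder hens kept at a thermoneutral 23 °C, which are 3 of the 6 libraries of the series. They were chosen by their labels, and no measured value entered the choice. RNA from the uterovaginal junctions of 4 hens was pooled for each library, so the 3 libraries, called pools 1, 2 and 3 below, stand for 12 hens and the spread between them is a spread between pools, not between single hens. The labels give no strain, age or laying stage. The series also set hens at 36 °C for 6 h beside these; those libraries were not analysed here, and no comparison between temperatures was made.

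The uterovaginal junction is a short, folded segment of the oviduct between the shell gland and the vagina. Its surface epithelium is ciliated and secretory, and simple tubular invaginations of it, the sperm storage tubules, keep sperm alive for weeks between matings. Secretion of ions, bicarbonate, mucus and immunoglobulin by the epithelium, contraction of the muscle beneath it, and the action of progesterone and estrogen are the functions for which this tissue is best known.

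Levels are given in TPM, the share of a library's transcripts corrected for gene length on a scale that sums to the same total in every library, which lets genes be set side by side within a library. Triplets of values are in the order of pools 1, 2 and 3, and mean ± SD values, which stand in parentheses behind gene names, are TPM over n = 3 pools. Pools 1, 2 and 3 held 23685672, 23438814 and 24959902 counts over 20285 rows of the table. A mean of at least 1 TPM was reached by 15247 rows (75.2%), and among protein-coding rows by 12932 of 15401 (84%). At least 10 TPM was reached by 10550 rows (52%), at least 100 TPM by 1874 rows (9.24%) and at least 1000 TPM by 125 rows. The 10 rows with the highest mean over the 3 pools held 6.30% to 7.64% of the RNA of a pool. The 100 highest by this mean held 22.3% to 24.2% and the 1000 highest 54.4% to 55.9%. Mitochondrial rows held 3.35% to 3.72%, and the 68 rows of cytosolic ribosomal proteins 6.73% to 7.60%.

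The most abundant single row was an immunoglobulin variable segment without a symbol (ENSGALG00000049450, chromosome 15, 8214032 to 8214343 on the minus strand, GRCg6a), at 15954, 11759 and 23885 TPM. Another such segment (ENSGALG00000050515, on an unplaced scaffold) ranked sixth, at 4111, 2551 and 7905 TPM. Both were highest in pool 3 and lowest in pool 2. Over all 72 immunoglobulin variable rows, of which 30 reached 1 TPM, the share of RNA was 2.27% in pool 1, 1.63% in pool 2 and 3.46% in pool 3. These segments resemble each other in sequence, so the split of reads among them is uncertain.

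The highest named gene was SPIK5 (chromosome 13, 11260862 to 11270908 on the plus strand), a secreted Kazal-type inhibitor of serine proteases. Its level was 11338, 10891 and 6459 TPM. Pools 1 and 2 were close together and pool 3 was lower.

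Genes needed by every cell filled much of the rest of the top. They were the mitochondrial respiratory genes COX1 (6820.1 ± 570.4), ATP6 (6752 ± 428), COX3 (6273 ± 558) and COII (4830.4 ± 359), and the genes of protein synthesis and turnover EEF1A1 (4582 ± 336), UBB (4274 ± 132), FAU (2991 ± 226), OAZ (2698 ± 157) and RPS19 (2282 ± 75.3). Cytoskeletal genes were ACTB (3513 ± 311), TAGLN2 (2522 ± 106) and ACTG1 (2439 ± 58.1). Genes that hold iron, bind calcium or remove peroxide were GPX1 (3462 ± 179.7), FTH1 (3357 ± 137), S100A6 (3283 ± 205) and GPX3 (2339 ± 58.8), of which GPX3 is a secreted glutathione peroxidase. In all of these the pools differed by at most 1.18-fold.

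Several of the remaining genes at the top were less even. EPCAM, the adhesion molecule that marks epithelium, was at 3042, 2922 and 3065 TPM and nearly equal in the pools. RARRES1 (chromosome 9), which in the hen encodes the eggshell matrix protein ovocalyxin-32, was at 1845, 1994 and 6429 TPM. CA4 (chromosome 19), a carbonic anhydrase anchored to the outer face of the cell membrane, was at 2023, 1353 and 4320.2 TPM. Pool 3 was far the highest for both. Without it the mean of RARRES1 was 1919.5 TPM in place of 3423 TPM, and that of CA4 1688 TPM in place of 2565 TPM.

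TSPAN16, a tetraspanin, was at 2407, 2412 and 4371 TPM, and the cell surface antigen PSCA at 2295, 2271 and 2909 TPM. Pool 3 was again the highest. Pool 2 was the highest for B2M, the light chain of MHC class I (3004, 4029.8 and 2648 TPM), for BF2, a class I heavy chain (2179, 2583 and 2074 TPM), and for IFITM3, an antiviral membrane protein (1745, 2926 and 2373 TPM). A row described in the file as cystatin, a secreted inhibitor of cysteine proteases, was at 1837, 2292 and 2150.3 TPM; it has no symbol and was picked after its values were seen.

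**Figure D1:**
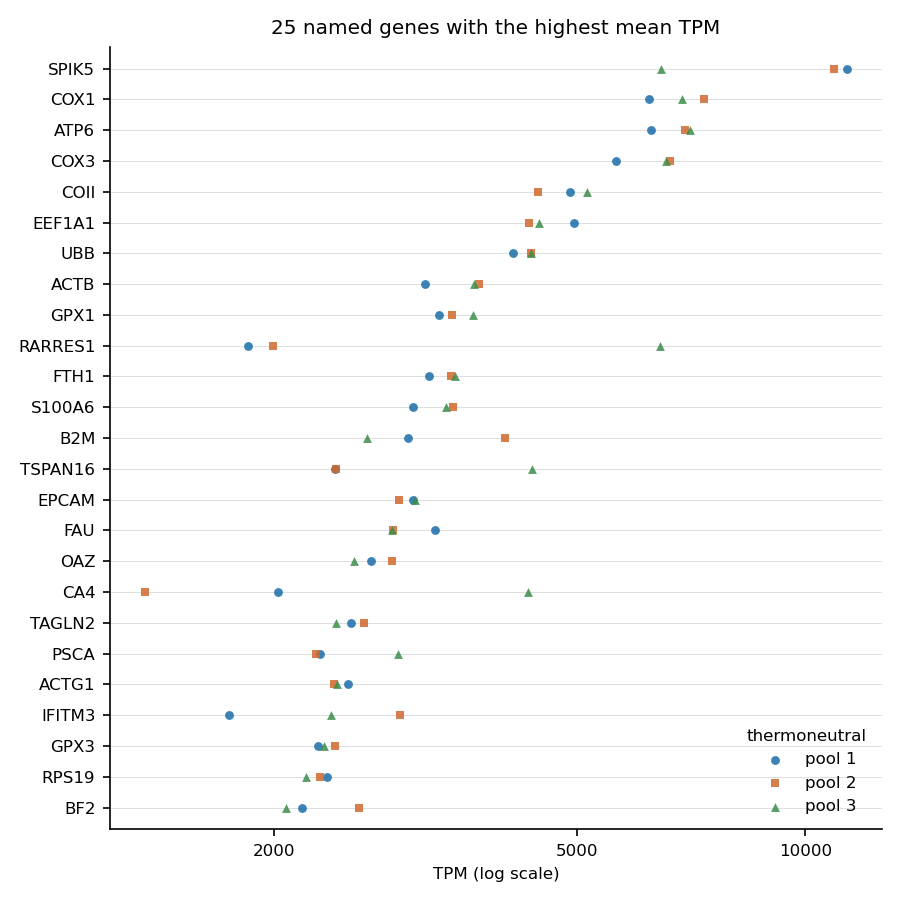
TPM (horizontal, log scale) of the 25 named genes with the highest mean, with a point for each of thermoneutral pools 1, 2 and 3. Most genes show 3 points close together, while RARRES1 and CA4 show pool 3 at 6429 and 4320 TPM, apart from the other pools, and SPIK5 shows pool 3 at 6459 TPM, below them.

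Cell type markers were read as lists, each described by how many members reached 1 TPM and by the sum of their levels. Over all rows 75.2% reached 1 TPM, 52% reached 10 TPM and 9.24% reached 100 TPM, and of protein-coding rows 84% reached 1 TPM. In RNA from whole tissue, fewer cells of a type and less RNA per cell cannot be told apart. The lists held from 3 to 39 genes with a row, so their sums do not rank cell types. All 18 epithelial genes with a row reached 10 TPM and 12 reached 100 TPM, and their sum was 9451, 9186 and 8433 TPM. After EPCAM the list was led by KRT19, a keratin of simple epithelium, at 1879.7, 1784 and 1378 TPM. It went on with the keratin KRT7, the tight junction gene CLDN3, the epithelial transcription factor ELF3 and the adhesion gene CDH1: KRT7 (985 ± 126), CLDN3 (913 ± 77.3), ELF3 (796 ± 75.1) and CDH1 (298 ± 32.2). KRT18 stood lower, at 128, 131 and 174 TPM, and was highest in pool 3. None of the 18 was 2-fold apart between pools. Of all rows over 1 TPM 9.06% were 2-fold apart, and 2.35% of rows of at least 10 TPM, the level of all 18.

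Markers of stratified epithelium were present at a lower level, with 6 of 7 members over 1 TPM and a sum of 257, 266 and 152 TPM. KRT5, a keratin of basal cells, was at 139.7, 144 and 78.2 TPM. TP63, the transcription factor of basal cells, was at 36.3, 36.5 and 17.97 TPM. For both, pools 1 and 2 were alike and pool 3 was the lowest, as it also was for the keratins KRT14 (44.5, 50.5 and 28.3 TPM) and KRT15 (19.6, 16.9 and 10.7 TPM). TP63 averaged 19.7 TPM when the deposited gene length was used in place of the shorter length behind its FPKM. KRT75 was under 1 TPM in every pool.

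Ciliated cells were strongly represented. Of 39 members with a row, 38 reached 10 TPM and 13 reached 100 TPM, where 52% and 9.24% of all rows did. Their sum was 6387, 5914 and 5202 TPM. FOXJ1 (chromosome 18, 4495739 to 4501676), the transcription factor that drives motile cilia, was at 386, 374 and 339.5 TPM. TPPP3, which binds tubulin, was the highest member at 1964, 1842 and 1573 TPM. Both were highest in pool 1 and lowest in pool 3. Parts of the axoneme followed, among them the radial spoke genes RSPH9 and RSPH1, the dynein intermediate chain DNAI2 and the tektin TEKT1: RSPH9 (322 ± 23.97), RSPH1 (318 ± 56.4), CFAP45 (299.7 ± 26.7), ENKUR (245 ± 24.4), DNAI2 (239 ± 34.2), ROPN1L (207 ± 17.7), TEKT1 (194 ± 22.7) and ZMYND10 (137 ± 26.8). CCNO, which acts in the multiplication of centrioles before cilia form, was at 99.8, 79.4 and 117 TPM, and GMNC, which acts upstream of it, at 17.2, 21.02 and 19.1 TPM. PIFO alone was under 1 TPM in every pool.

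The ciliated list moved together between pools. Pool 1 was the highest for 28 of the 38 expressed members, where it was the highest for 39.7% of all rows over 1 TPM, and pool 3 was the lowest for 33 of them, where it was the lowest for 44.7% of all such rows. The differences were small, and no expressed member was 2-fold apart. All 38 averaged at least 10 TPM, a level at which only 2.35% of all rows were 2-fold apart. The median member stood at 1.10 times its 3-pool mean in pool 1, 1.02 times in pool 2 and 0.874 times in pool 3. The members with the largest ratios between pools were SPAG17 (1.79-fold), STOML3 (1.71-fold) and SPAG6 (1.61-fold), and STOML3 and CCNO were highest in pool 3, against the rest of the list.

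Smooth muscle genes summed to 7195, 11096 and 10383 TPM. Of 20 members, 19 reached 1 TPM and 4 averaged over 1000 TPM, and LDB3 was under 1 TPM. TAGLN, a protein of the contractile apparatus, was at 1177, 1819 and 1815 TPM. MYH11, the smooth muscle myosin heavy chain, was at 273, 497 and 369 TPM. Pool 1 was the lowest for both. The same held for the myosin light chain MYL9, desmin DES, the tropomyosin TPM1, the visceral actin ACTG2 and the calponin CNN1 among others: MYL9 (1456 ± 325), DES (1162 ± 240.1), TPM1 (1015 ± 211), CSRP1 (956 ± 191), ACTG2 (941 ± 226), ACTA2 (675 ± 155), MYLK (269 ± 57.4) and CNN1 (258 ± 54.3). Over the deposited gene length the means of TPM1 and ACTA2 were 543 and 351 TPM.

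Pool 1 was the lowest for all 19 expressed members, where it was the lowest for 27.8% of all rows over 1 TPM, and pool 2 was the highest for 18 of them, where it was the highest for 33.1% of all such rows. No member over 1 TPM was 2-fold apart. Of the 19, 18 averaged at least 10 TPM, a level at which only 2.35% of all rows were 2-fold apart. The median member stood at 0.757 times its mean in pool 1. ACTA1, the actin of skeletal muscle, had the same order of pools at 49.8, 99.9 and 75.7 TPM. Skeletal muscle was otherwise scarce, with MYL1, MYBPC1, ACTN2, TNNC2, MYH1E and MYH1F under 1 TPM.

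Connective tissue had the same order of pools by its sums. All 19 fibroblast genes reached 1 TPM and summed to 2641, 3524 and 3177 TPM, with pool 1 lowest for 15 of them. The matrix list of 44 genes had 42 over 1 TPM and a sum of 5546, 7119 and 6537 TPM, with pool 1 lowest for 29 of the 42 and pool 2 highest for 31. Over all rows above 1 TPM pool 1 was the lowest for 27.8% and pool 2 the highest for 33.1%. COL1A1, the main fibrillar collagen chain, was at 383, 669 and 472 TPM. The proteoglycan DCN led the list at 714, 765 and 754 TPM and varied little. Other abundant members were SPARC, the protease inhibitors TIMP2 and TIMP3, MGP, an inhibitor of calcification, further collagens and the laminin chain LAMB1: SPARC (629 ± 86.8), TIMP2 (560.1 ± 65.04), MGP (525 ± 128), COL3A1 (441 ± 109), COL6A2 (378 ± 65.8), COL1A2 (377 ± 82.5), TIMP3 (272 ± 25.1) and LAMB1 (199 ± 13.9). Elastin, ELN, was at 40.7, 49.8 and 49.5 TPM. FBN2 and SPARCL1 were under 1 TPM.

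**Figure D2:**
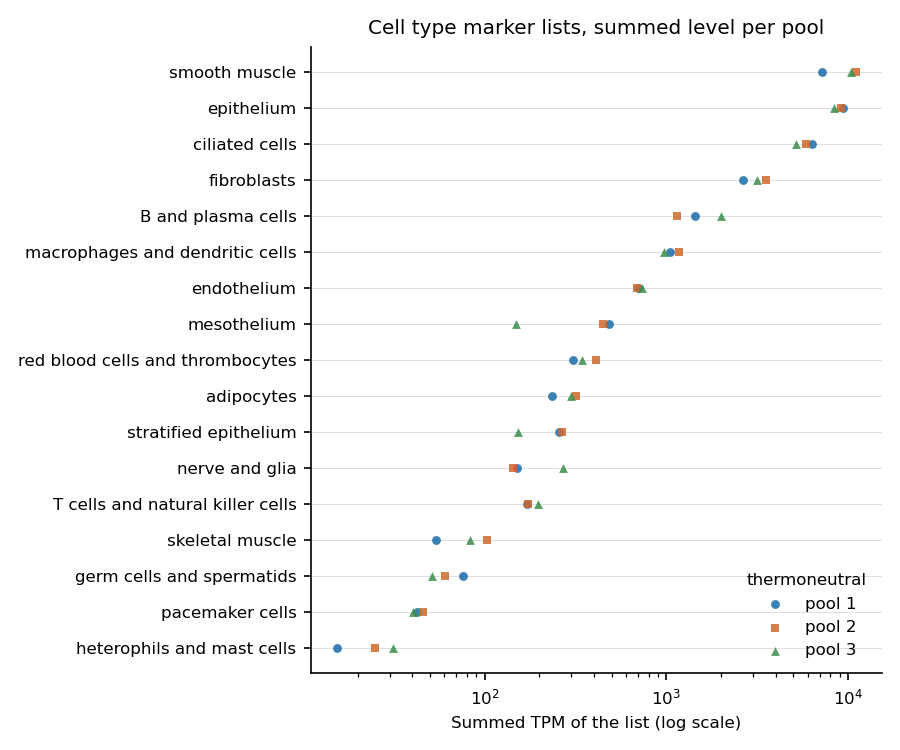
Summed TPM (horizontal, log scale) of each of the 17 cell type marker lists, with a point for each thermoneutral pool and lists sorted by their mean sum. Smooth muscle, epithelium and ciliated cells lie at the top, but lists differ in their number of genes, so this order does not rank cell types. Pool 1 is low in smooth muscle, and pool 3 is low in stratified epithelium. The points of pool 3 that stand apart in mesothelium, in B and plasma cells and in nerve and glia rest on MSLN, JCHAIN and NPY.

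Among the 17 marker lists the endothelium had the most even sum, 698, 691 and 736 TPM, and all 20 of its genes reached 1 TPM. PLVAP, a protein of fenestrated endothelium, was at 154, 150.4 and 152 TPM. Next came the vessel markers SOX7 (103 ± 12.4), PECAM1 (87.9 ± 7.72) and VWF (61.7 ± 2.23). SOX17 was the only member 2-fold apart, at 48.9, 34.9 and 96.99 TPM, and was highest in pool 3. Red cells contributed the globins HBA1 (107 ± 16.3) and HBBA (90.8 ± 20.5). The embryonic globins HBE and HBZ had 0 counts in every pool, which allows up to 0.425 TPM for HBE and up to 0.340 TPM for HBZ in any pool, taking 3 counts as the limit. MSLN, a mesothelial surface protein that some epithelia also make, was at 478, 439 and 139.7 TPM and lowest in pool 3, while the mesothelial factor WT1 was low at 5.47, 7.05 and 6.14 TPM. The mesothelial list without MSLN summed to 9.01, 11.2 and 9.23 TPM.

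Of the immune genes, those of antibody secretion were high. JCHAIN, which joins immunoglobulin chains into polymers, was at 1343, 1061 and 1897 TPM, in the same order of pools as the share held by all immunoglobulin variable rows. Not every such row had this order. For example, a row at 1168, 898 and 1076 TPM was highest in pool 1. The other 10 expressed members of the B and plasma cell list averaged at most 33.7 TPM (DERL3), and PAX5, CD72 and TNFRSF13C were under 1 TPM. T cell markers were lower, led by the receptor chains CD3D and CD3E and the granule protease GZMA: CD3D (46.9 ± 3.52), CD3E (42.1 ± 3.96), GZMA (14.6 ± 3.45), CD8A (6.91 ± 1.60) and CD4 (2.77 ± 0.16).

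Of macrophage and dendritic cell genes, the lysosomal protease CTSS was at 552, 669 and 511 TPM and the transcription factor IRF8 at 305, 293 and 245 TPM. The complement genes and the growth factor receptor CSF1R that mark macrophages more narrowly stood well below them: C1QA (33.03 ± 4.71), C1QB (26.99 ± 2.39), C1QC (23.7 ± 1.78) and CSF1R (19.4 ± 2.89). Genes of heterophils and mast cells were scarce, with 8 of 14 over 1 TPM and a sum of 15.4, 25.01 and 31.4 TPM. Their highest member was the matrix protease MMP9, at 4.61, 3.31 and 9.54 TPM. AVBD4, AVBD6, CATHL1 and HDC were under 1 TPM in every pool.

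Nerve and glial genes were mostly low, with a median of 3.29 TPM. Of 15 with a row 11 reached 1 TPM and 4 reached 10 TPM, NPY and VIP among them. The neuropeptide NPY was at 40.9, 26.3 and 147 TPM, with pool 3 far the highest, and the cells that made it were not identified. VIP, a relaxant peptide of oviduct nerves, was even at 30.6, 29.1 and 34.8 TPM. CHAT and SNAP25 were under 1 TPM. Of 6 adipocyte genes 4 reached 1 TPM. ADIPOQ, the gene of adiponectin, was at 213, 295 and 277 TPM, and the other 5 summed to 23.1, 25.1 and 23.1 TPM. PLIN1 and CIDEC, which coat and enlarge lipid droplets, were under 1 TPM. Of 7 germ cell genes 3 reached 1 TPM, and the highest, SPATA18, which is also active outside the germ line, was at 73.7, 55.7 and 48.5 TPM. DDX4, ZPBP, ODF1 and TSSK3 were under 1 TPM. Cell division genes were mostly low, with a median of 4.67 TPM where the median of all rows was 11.4 TPM. PCNA, the replication clamp, was the highest at 90.6, 86.8 and 80.3 TPM, and the proliferation marker MKI67 stood at 1.68, 2.11 and 1.41 TPM.

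The neighbouring segments of the oviduct were checked through their products. OVAL, the gene of ovalbumin, the main egg white protein of the magnum, was close to absent at 0.0799, 0.0405 and 0.334 TPM, and OVALX was also under 1 TPM. OVALY stood at 1.49, 2.17 and 11.01 TPM, highest in pool 3, and the lysozyme LYZ at 4.35, 3.38 and 4.88 TPM. Avidin, AVD, a biotin-binding protein that has been tied to sperm storage in hens, was at 7.04, 6.58 and 19.3 TPM. It was highest in pool 3 and averaged 6.81 TPM without that pool. The highest member of the list of egg white proteins was a row named LTF, far above OVAL, at 489, 905 and 487 TPM, with pool 2 highest. It is described as lactotransferrin, an iron-binding protein. The protease inhibitor SPIK5, at 11338, 10891 and 6459 TPM, was not in this list. Of the 19 genes entered in the list 9 had a row, so the others were not judged. EXFABP, an extracellular fatty acid-binding protein of the lipocalin family, was at 205, 271 and 250.0 TPM.

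Of 11 shell gland products 9 reached 1 TPM, where 84% of protein-coding rows did. Of these 9, 5 were 2-fold apart. Of all rows over 1 TPM 9.06% were, and of those between 1 and 10 TPM 24.1%. Among the 9, 5 averaged 10 TPM or more. RARRES1, described above as an eggshell matrix protein, was counted with the antimicrobial genes. It stood above every member of this list, at 1845, 1994 and 6429 TPM. MFGE8 was even at 268, 286 and 275 TPM. EDIL3, a protein of vesicles in the uterine fluid, was at 161, 106 and 242 TPM, and the opioid precursor PENK at 6.53, 6.23 and 21.4 TPM, with pool 3 highest for both. BPIFB2 had 0 counts in every pool, which allows up to 0.143 TPM in any of them. No row was found under the symbols CALB1 and SPP1, so their levels are not given.

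Of 23 genes of mucosal secretion 21 reached 1 TPM, where 84% of protein-coding rows did. Those of immunoglobulin transport and protein folding were higher than the mucins with a row. PIGR, the receptor that carries polymeric immunoglobulin across epithelium, was at 1384, 1369 and 924 TPM, lowest in pool 3, where JCHAIN was highest. AGR2, a disulfide isomerase of mucus-secreting cells, was even at 1174, 1252 and 1150.0 TPM. The secreted FAM3D, the Golgi protein GOLM1, the transcription factor XBP1 of secretory cells and the fucosyltransferase FUT8 followed: FAM3D (514 ± 56.2), GOLM1 (189 ± 56.2), XBP1 (187 ± 15.3) and FUT8 (146 ± 21.2).

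The transmembrane mucin MUC13 was at 75.3, 177 and 64.1 TPM, high in pool 2. The secreted mucin MUC6 was at 5.14, 4.74 and 1.26 TPM, low in pool 3, and MUC1 was under 1 TPM at 0.621, 0.669 and 0.577 TPM. Further mucin rows without a symbol were chosen by their descriptions after values were seen. A row described as mucin-5B-like was at 95.9, 82.9 and 62.98 TPM. Of the rows with a mucin-2 repeat region, the higher was at 59.6, 55.1 and 47.6 TPM and the lower at 3.72, 3.95 and 3.15 TPM. The alpha subunit of ovomucin was under 1 TPM in every pool, at 0.823, 0.592 and 0.426 TPM. The trefoil factor TFF2, which acts in mucus, stood at 5.41, 3.77 and 15.3 TPM, highest in pool 3.

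Antimicrobial peptides were low. Of 31 antimicrobial and innate genes, 17 reached 1 TPM, where 84% of protein-coding rows did. Besides RARRES1 the list was led by the complement protease CFD and the lectin LGALS3: CFD (249 ± 24.2) and LGALS3 (186 ± 10.2). The beta-defensins reached at most 4.88 TPM in any pool, with AVBD5 at 3.34, 4.40 and 3.11 TPM and AVBD1 at 0.963, 4.88 and 2.99 TPM. AVBD3, AVBD10 and AVBD11 averaged under 1 TPM. AVBD13 and LEAP2 had 0 counts in every pool, which allows up to 0.843 TPM for AVBD13 and up to 0.141 TPM for LEAP2. TLR3, a sensor of viral RNA, was at 35.6, 52.1 and 28.4 TPM, highest in pool 2, and the sensors of flagellin and of bacterial cell wall were lower: TLR5 (7.44 ± 1.70) and TLR4 (2.34 ± 0.307).

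Carbonic anhydrases interconvert carbon dioxide and bicarbonate. Membrane-bound CA4 was far above every other member. The next, cytosolic CA2, was even at 70.9, 75.7 and 66.2 TPM, and mitochondrial CA5B was at 68.3, 56.3 and 76.01 TPM. The membrane enzyme CA12 was at 12.8, 23.97 and 19.9 TPM, lowest in pool 1. CA8, a member without catalytic activity, had the same order of pools as CA4, at 4.84, 2.37 and 8.76 TPM. CA3A and CA15L were under 1 TPM in every pool. In all, 4 of the 9 members over 1 TPM were 2-fold apart, where 9.06% of all rows over 1 TPM and 24.1% of those between 1 and 10 TPM were; 4 of the 9 averaged 10 TPM or more.

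For bicarbonate and proton transport, 35 of 42 genes (83.3%) reached 1 TPM, near the 84% of all protein-coding rows. General subunits of the vacuolar proton pump were among the highest of the list: ATP6AP2 (256 ± 21.8), ATP6V0C (210.5 ± 0.878), ATP6V1G1 (192 ± 6.34), ATP6AP1 (176 ± 35.97) and ATP6V0B (172 ± 14.6). ATP6V0A4, a subunit typical of proton-secreting epithelial cells, was at 195, 226 and 123 TPM. ATP6V1G3, another such subunit, was at 80.8, 89.4 and 54.6 TPM. Pool 3 was the lowest for both, and also for ATP6V0D2 (78.00, 103 and 68.5 TPM) and ATP6V1C2 (135, 151 and 118 TPM). The sodium bicarbonate cotransporter SLC4A4 was instead highest in pool 3, at 63.9, 44.8 and 103 TPM. The anion exchangers were SLC4A2 (81.7 ± 3.002) and SLC26A4 (65.6 ± 16.3). SLC26A3, SLC26A6, SLC26A9, SLC9A3 and SLC4A10 were under 1 TPM in every pool.

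All 32 sodium, potassium and chloride transport genes with a row reached 1 TPM and 27 reached 10 TPM. Of all protein-coding rows 84% reached 1 TPM, and of all rows 52% reached 10 TPM. ATP1B1, the beta subunit of the sodium pump, was among the highest at 544, 584 and 543 TPM. SLC12A2, the cotransporter that loads secretory cells with chloride, was at 491, 473 and 295 TPM, and pool 3 was the lowest. Intracellular chloride channel proteins, a further pump subunit and potassium channel genes came next: CLIC4 (257 ± 16.4), ATP1B3 (207 ± 16.3), KCNE3 (194 ± 19.8), KCNJ16 (169.6 ± 15.9), FXYD6 (133 ± 11.2), CLIC6 (121 ± 47.6) and KCNK1 (101 ± 17.7). CFTR, the apical chloride channel, was present at 19.3, 17.6 and 28.1 TPM. Of the epithelial sodium channel, subunit SCNN1A stood above the other subunits: SCNN1A (70.1 ± 14.1), SCNN1B (13.3 ± 0.68) and SCNN1G (9.59 ± 0.792). The chloride channel CLCN2 was at 1.70, 1.35 and 9.09 TPM, high in pool 3 alone.

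Genes of intracellular calcium stores were the highest of the calcium list. In it 25 of 31 members (80.6%) reached 1 TPM, near the 84% of all protein-coding rows. The secretory pathway pump ATP2C1 was at 245, 204 and 224 TPM and the store sensor STIM1 at 207, 200.4 and 199 TPM. The store pump ATP2A2 and the plasma membrane pump ATP2B4 were lower: ATP2A2 (93.7 ± 14.4) and ATP2B4 (69.4 ± 7.30). TRPV6, CASR, RYR2, RYR3, SLC8A3 and PTH1R were under 1 TPM in every pool.

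Among water channels and nutrient carriers 29 of 31 reached 1 TPM, where 84% of protein-coding rows did. The metal carrier SLC39A8 was the highest at 199, 157 and 249 TPM, followed by carriers of creatine, glucose and water: SLC6A8 (150.1 ± 9.73), SLC2A1 (138 ± 10.2), AQP1 (125 ± 13.7) and SLC5A1 (105 ± 17.1). AQP3, a channel for water and glycerol, was at 79.7, 55.6 and 37.6 TPM, lowest in pool 3. The iodide carrier SLC5A5 was at 34.4, 48.7 and 36.1 TPM. AQP4 and SLC16A8 were under 1 TPM.

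Among steroid and nuclear receptors, 31 of 37 genes (83.8%) reached 1 TPM, near the 84% of all protein-coding rows. Of the 31, 1 was 2-fold apart (ESRRB, 1.94, 0.908 and 0.786 TPM), where 9.06% of all rows over 1 TPM were. In all, 21 of the 31 averaged at least 10 TPM, a level at which only 2.35% of all rows were 2-fold apart. PGR (chromosome 1, 184494415 to 184532824), the progesterone receptor, was at 194, 178 and 219 TPM. ESR1, the estrogen receptor alpha, stood at 12.7, 15.1 and 14.3 TPM. The lowest PGR pool was thus more than 10 times the highest ESR1 pool. ESR2, the estrogen receptor beta, was under 1 TPM in every pool, as was the membrane receptor GPER1. The mineralocorticoid receptor NR3C2 was at 30.9, 29.7 and 23.1 TPM and the glucocorticoid receptor NR3C1 at 9.40, 8.27 and 8.002 TPM, both with pools close together.

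The other abundant nuclear receptors were NR2F2, the oxysterol receptor NR1H3, the retinoic acid receptors RARA and RARG, and PPARD: NR2F2 (156 ± 8.61), NR1H3 (134 ± 5.42), RARA (129 ± 1.93), RARG (118 ± 2.08) and PPARD (53.5 ± 2.19). The membrane-associated progesterone binding proteins were PGRMC2 (108 ± 4.61) and PGRMC1 (107 ± 3.08), which did not differ beyond their spread. Over the deposited gene length RARG averaged 48.6 TPM, NR2F2 92.6 TPM and NR3C2 16.03 TPM, so their place in the order depends on the length used. NR5A1 and RORB were under 1 TPM.

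**Figure D3:**
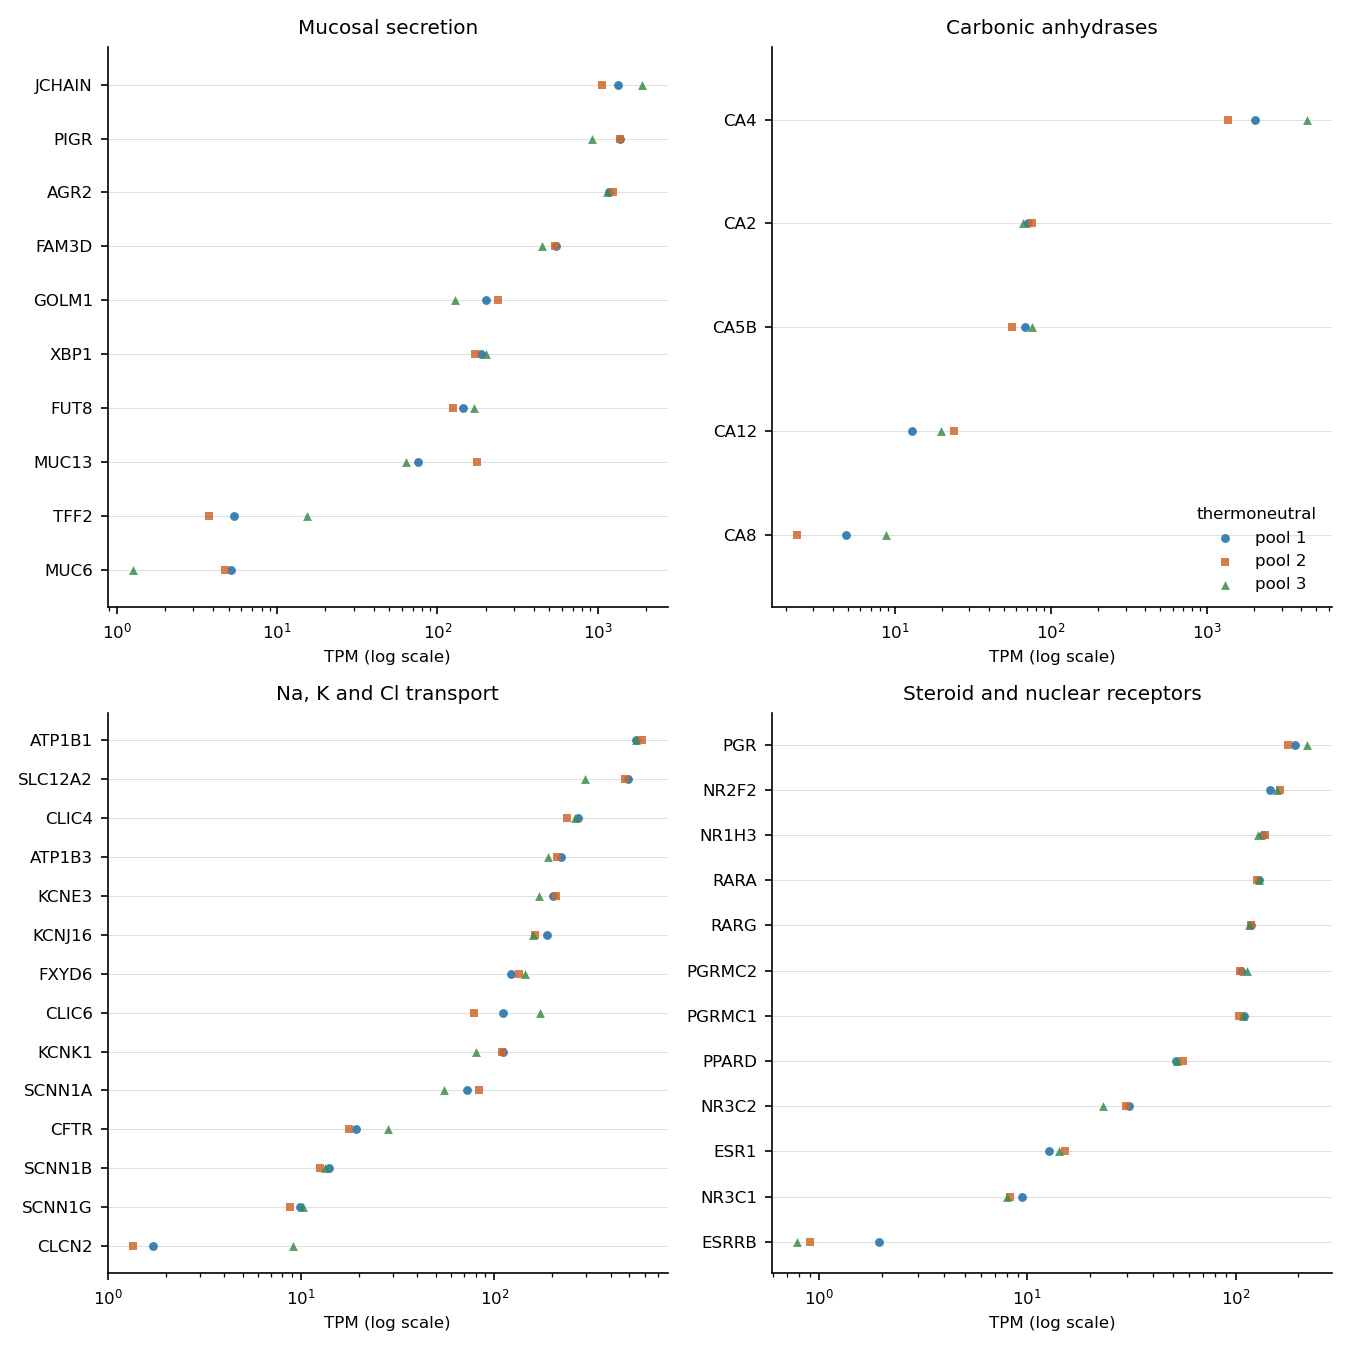
TPM (horizontal, log scale) of members of 4 lists, a point for each thermoneutral pool: genes of mucosal secretion, carbonic anhydrases, genes of sodium, potassium and chloride transport, and steroid and nuclear receptors. Only genes named in the text that averaged over 1 TPM are drawn. CA4 lies far above the other carbonic anhydrases and pool 3 is its highest at 4320 TPM; PGR lies at the top of its panel with 3 close points.

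Prostaglandins act on oviduct contraction, and all 19 genes of their synthesis and reception reached 1 TPM, where 84% of protein-coding rows did. PTGS1, the constitutive cyclooxygenase, was at 51.9, 60.2 and 93.2 TPM. PTGS2, the inducible one, was at 13.3, 13.8 and 22.3 TPM. Both were highest in pool 3. The synthase PTGES3, the receptors PTGDR and PTGER2 and the degrading enzyme HPGD were PTGES3 (207 ± 13.3), PTGDR (157 ± 11.8), PTGER2 (74.3 ± 7.06) and HPGD (34.1 ± 7.82). PTGES3 averaged 84.4 TPM and PTGS2 10.03 TPM over the deposited gene length. PTGFR, the receptor for prostaglandin F, was at 5.67, 6.90 and 6.09 TPM.

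Of 48 peptide hormone and neural receptor genes, 39 reached 1 TPM, where 84% of protein-coding rows did. Of these 39, 8 (20.5%) were 2-fold apart, where 9.06% of all rows over 1 TPM and 24.1% of those between 1 and 10 TPM were. In all, 18 of the 39 averaged 10 TPM or more. RAMP1, a partner that turns the calcitonin receptor-like receptor into a receptor for calcitonin gene-related peptide, was at 101, 71.00 and 269 TPM, with pool 3 far above the others. CALCRL, the receptor itself, was even at 9.56, 9.81 and 9.64 TPM, and so was RAMP2, which directs it to adrenomedullin, at 42.5, 42.8 and 43.1 TPM. The endothelin receptors differed likewise: EDNRA was even at 85.6, 84.7 and 81.9 TPM, whereas EDNRB was at 10.7, 8.68 and 28.3 TPM, highest in pool 3.

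The adiponectin receptors, the ATP-gated channels, an adrenergic receptor, VIPR1, a receptor for VIP, and AVPR1A, of the vasotocin receptor family, were ADIPOR1 (103 ± 5.83), ADIPOR2 (92.7 ± 7.86), P2RX7 (76.6 ± 13.9), P2RX4 (60.96 ± 2.09), ADRA2A (55.5 ± 17.7), VIPR1 (51.2 ± 14.1) and AVPR1A (47.3 ± 13.01). OXTR, of the same family, was at 1.17, 0.645 and 0.864 TPM. TACR2, CHRM5, AVPR1B, GLP2R, ADRA1B and HTR1D were under 1 TPM in every pool.

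Of 43 growth factor receptor genes, 41 reached 1 TPM and 33 reached 10 TPM. Of all protein-coding rows 84% reached 1 TPM, and of all rows 52% reached 10 TPM. LGR5, an R-spondin receptor and a stem cell marker in the mammalian gut, was at 176, 131 and 181 TPM. FGFR2, a receptor of fibroblast growth factors, was at 198, 151 and 132 TPM. These led the list and did not differ beyond their spread. The collagen receptor DDR1, the activin receptor family member ACVR1, the ERBB receptors and the Wnt receptor FZD6 followed: DDR1 (111 ± 8.59), ACVR1 (94.5 ± 1.23), ERBB3 (74.04 ± 2.11), ERBB2 (73.2 ± 2.79) and FZD6 (67.1 ± 9.82). ERBB4 averaged under 1 TPM, at 0.596, 0.273 and 2.02 TPM, with pool 3 highest.

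Homeobox genes set position along the body and the genital tract in development, and their levels here differed by cluster. All 7 genes from HOXB2 to HOXB8 were at 28.8 TPM or more in every pool. HOXB6, the highest HOX gene, was at 95.3, 95.3 and 124 TPM, while HOXB9 was at 3.09, 5.35 and 5.59 TPM. HOXA genes were lower, led by genes that pattern the uterus in mammals: HOXA11 (21.1 ± 4.08), HOXA9 (11.6 ± 2.57) and HOXA10 (11.4 ± 2.05). The 4 HOXC genes with a row (HOXC4, HOXC6, HOXC8 and HOXC10) were under 1 TPM in every pool. In the HOXD cluster HOXD8 was at 39.3, 37.2 and 104 TPM, high in pool 3, while HOXD11, HOXD12 and HOXD13 were under 1 TPM in every pool.

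Patterning genes outside the clusters that averaged above HOXB6 included TBX3 (267 ± 6.89), MSX2 (193 ± 17.9), EMX2 (169 ± 15.3) and PAX2 (159 ± 0.478), although EMX2 averaged 94.2 TPM over the deposited gene length. PAX2 and EMX2 act in the formation of the Müllerian duct, from which the oviduct arises, and PAX2 was among the most even genes of the tissue at 159, 159 and 158 TPM. LHX1, which acts in the same duct in the mouse, was at 17.1, 10.1 and 52.3 TPM, with pool 3 far the highest. The signals WNT5A and WNT4 and the factor GATA2 were GATA2 (126 ± 25.8), WNT5A (115 ± 14.7) and WNT4 (114 ± 2.72). MSX1 and GATA5 were under 1 TPM. In 22 of the 39 genes of this list over 1 TPM pool 3 was the highest, where it was the highest for 27.2% of all rows over 1 TPM.

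**Figure D4:**
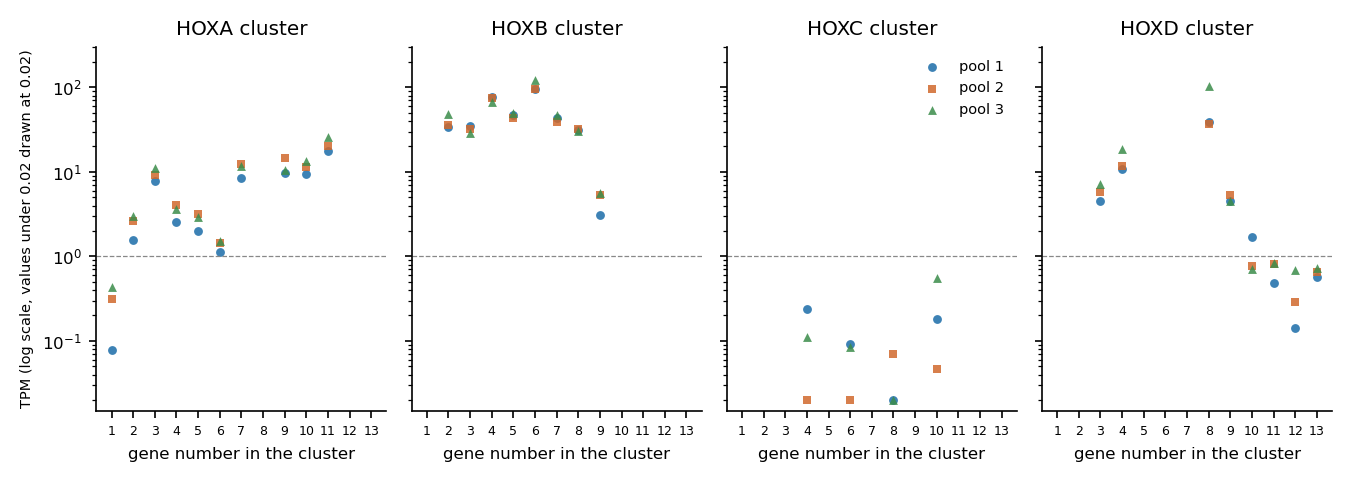
TPM (vertical, log scale, values under 0.02 drawn at 0.02) of the HOX genes with a row against their number in the cluster, for clusters A, B, C and D, a point for each thermoneutral pool; the dashed line is 1 TPM. HOXB2 to HOXB8 form a plateau, HOXC genes lie under 1 TPM, and HOXD8 in pool 3 is at 104 TPM.

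Of 36 genes proposed for sperm storage 34 reached 1 TPM, where 84% of protein-coding rows did. Besides CA4, GPX3 and the chaperone HSPA8, described below, the highest were the phospholipid-binding annexin ANXA2, the apolipoprotein APOA1, the superoxide dismutase SOD1 and the lactate dehydrogenase LDHB: ANXA2 (1997 ± 141), APOA1 (869 ± 16.4), SOD1 (589 ± 14.02), LDHB (541 ± 17.4), ANXA5 (442 ± 97.4) and LDHA (308 ± 48.1). TGFB1, a cytokine that restrains immune cells, was even at 104, 105 and 104 TPM, and the related TGFB3 and TGFB2 were lower: TGFB3 (49.05 ± 3.29) and TGFB2 (16.8 ± 1.19). APOB was under 1 TPM in every pool.

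Chaperones were abundant, with 27 of 35 over 100 TPM, a level reached by 9.24% of all rows. None of the 34 over 1 TPM was 2-fold apart. Of the 35, 33 averaged at least 10 TPM, a level at which only 2.35% of all rows were 2-fold apart. HSP90AA1, a cytosolic chaperone, was at 1117, 1254 and 1295 TPM. HSPA8, the constitutive HSP70, was at 897, 1043 and 1207 TPM. Pool 1 was the lowest for both. Chaperones of the endoplasmic reticulum and small heat shock proteins followed: CALR (939.9 ± 25.8), PDIA3 (534 ± 9.67), P4HB (499 ± 7.63), HSPB1 (471 ± 82.6), HSPA5 (345 ± 28.3), HSP90B1 (314 ± 13.2) and HSPB8 (287 ± 11.4). The heat shock factors were HSF3 (86.8 ± 7.96), HSF2 (47.1 ± 0.462) and HSF1 (13.5 ± 1.28), with HSF3 averaging 54.8 TPM over the deposited gene length, and HSF4 was under 1 TPM. Immediate early genes, which respond within minutes to many stimuli, were measurable too. Of 26 with a row, 11 averaged at least 100 TPM, where 9.24% of all rows did. None of the 25 over 1 TPM was 2-fold apart, where 9.06% of all such rows were. At 10 TPM or more, reached by 21 of them, the share of all rows was 2.35%. FOS was at 482, 504 and 536 TPM and JUN at 535, 501 and 540.3 TPM, and the highest of the list were BTG1 (1075 ± 42.3), ZFP36L1 (939 ± 57.8) and JUND (809.9 ± 57.3).

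Interferon-induced genes were highest in pool 2 in all 28 members over 1 TPM, where 33.1% of all rows over 1 TPM were. Of the 28, 16 (57.1%) were 2-fold apart, and all 28 averaged at least 10 TPM, a level at which 2.35% of all rows were 2-fold apart. OASL, an antiviral protein, was at 354, 1814 and 799 TPM. IFIT5, which binds viral RNA, was at 168, 894 and 289.9 TPM. RSAD2, the antiviral enzyme viperin, was at 34.4, 241 and 48.1 TPM. In each of them pool 2 was the highest and pool 1 was the lowest, and the same held for SAMD9L (4.92, 38.3 and 7.95 TPM). For OASL pool 3 lay about midway between the other pools on a log2 scale, 1.18 below pool 2 and 1.17 above pool 1. Without pool 2 the mean of OASL was 576 TPM in place of 989 TPM. The sum of the list was 5069, 10058 and 5602 TPM.

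The interferon regulatory factors IRF7 and IRF1 had the same highest pool, with IRF7 at 70.2, 149.7 and 94.7 TPM and IRF1 at 90.7, 123 and 97.6 TPM. IRF8 of the same family, given above with the macrophage genes, was instead highest in pool 1. The antiviral GTPase MX1 was at 130.4, 202 and 141 TPM, and IFITM1, which is not in the list, at 26.1, 115 and 45.2 TPM. Of leukocytes, the T and natural killer cell list summed to 170.5, 173 and 197 TPM, and the macrophage and dendritic cell list to 1043, 1169 and 972 TPM. Without CTSS that list summed to 491, 500.2 and 461 TPM, and 7 of its 18 members over 1 TPM were highest in pool 2 and 10 in pool 3. Their part in the interferon result was not tested. XAF1 averaged under 1 TPM.

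Across all rows over 1 TPM, 1382 (9.06%) had a highest pool at least 2-fold over the lowest. Most of these were low rows: 1134 of 4697 between 1 and 10 TPM, 205 of 8676 between 10 and 100 TPM, 35 of 1749 between 100 and 1000 TPM, and 8 of 125 above. The median coefficient of variation between pools was 20.2%, 7.88%, 6.18% and 7.69% in these 4 ranges, while counting error alone would give a median of 11.6%, 3.30%, 1.60% and 0.675%. The biological coefficient of variation that edgeR fitted in common to the counts of 15075 genes was 0.148. It was 0.1575 without pool 1, 0.1578 without pool 2 and 0.1226 without pool 3, each over its own set of genes. Of the 707 list genes over 1 TPM, 84 (11.9%) were 2-fold apart.

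The uneven rows did not fall evenly over the possible orders of pools. Among 248 rows of at least 10 TPM that were 2-fold apart, the order pool 3, then 1, then 2 was the most frequent, with 80 rows (32.3%), whereas 13.2% of all 10550 rows of at least 10 TPM had it. Of the 20 named genes with the largest ratios 12 had this order. They included the neuropeptide NPY, NPBWR1, a receptor of neuropeptides B and W (15.7, 5.22 and 39.9 TPM), the relaxin RLN3 (54.6, 32.8 and 166 TPM), the phosphate carrier SLC34A2 (33.7, 21.5 and 108 TPM), the urea carrier SLC14A1 (110.0, 75.2 and 398 TPM), LHX1, the semaphorin SEMA3G (348, 246 and 1077 TPM), the annexin ANXA10 (14.2, 7.42 and 51.6 TPM) and SYT15 (29.3, 15.7 and 84.2 TPM). Without pool 3 the mean of NPY was 33.6 TPM, that of SEMA3G 297 TPM and that of RAMP1 86.2 TPM. Pool 3 also had the lowest sum of the ciliated list and the highest of the B and plasma cell list (1439, 1146 and 1994 TPM), and their part in this order was not tested. Without JCHAIN the members of that list summed to 95.8, 84.96 and 97.4 TPM. The nerve and glia list without NPY summed to 110.2, 116 and 122 TPM, so the pools were close together apart from that gene.

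The same order held for COCH, a secreted matrix protein (15.4, 14.2 and 76.2 TPM), and TRAPPC3L (3.37, 2.63 and 26.4 TPM), with pools 1 and 2 close together. GCHFR, which regulates biopterin synthesis, had 21.2, 10.6 and 4.38 TPM, highest in pool 1, and PYURF had 21.1, 5.01 and 15.7 TPM, low in pool 2. The precursor rows of the microRNAs gga-mir-29c (3.36, 17.9 and 16.4 TPM) and gga-mir-1804 (11.7, 3.66 and 15.1 TPM) are short rows in libraries selected for poly-A RNA. The first rests on 4, 21 and 21 counts. The other had the order pool 3, then 1, then 2, and rests on 13, 4 and 18 counts. The remaining 5 of the 20 were the interferon-induced SAMD9L, RSAD2, IFIT5, OASL and IFITM1.

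At the other end, 10 named genes of at least 100 TPM differed least between pools, all by at most 1.01-fold. They were the glycogen phosphorylase PYGB, the chaperonin subunit CCT7, the proton pump subunit ATP6V0C, FKBP4, a co-chaperone of steroid receptors, and 6 others: PYGB (229.7 ± 0.217), NFE2L1 (245 ± 0.708), PAX2 (159 ± 0.478), CCT7 (169 ± 0.652), ATP6V0C (210.5 ± 0.878), BRD2 (158 ± 0.619), LMAN2 (153 ± 0.624), FKBP4 (253 ± 1.05), RAB10 (142 ± 0.68) and TGFB1 (104 ± 0.497). They were chosen as the smallest ratios of 1658 rows with a symbol at that level, so their SD understates their true spread.

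**Figure D5:**
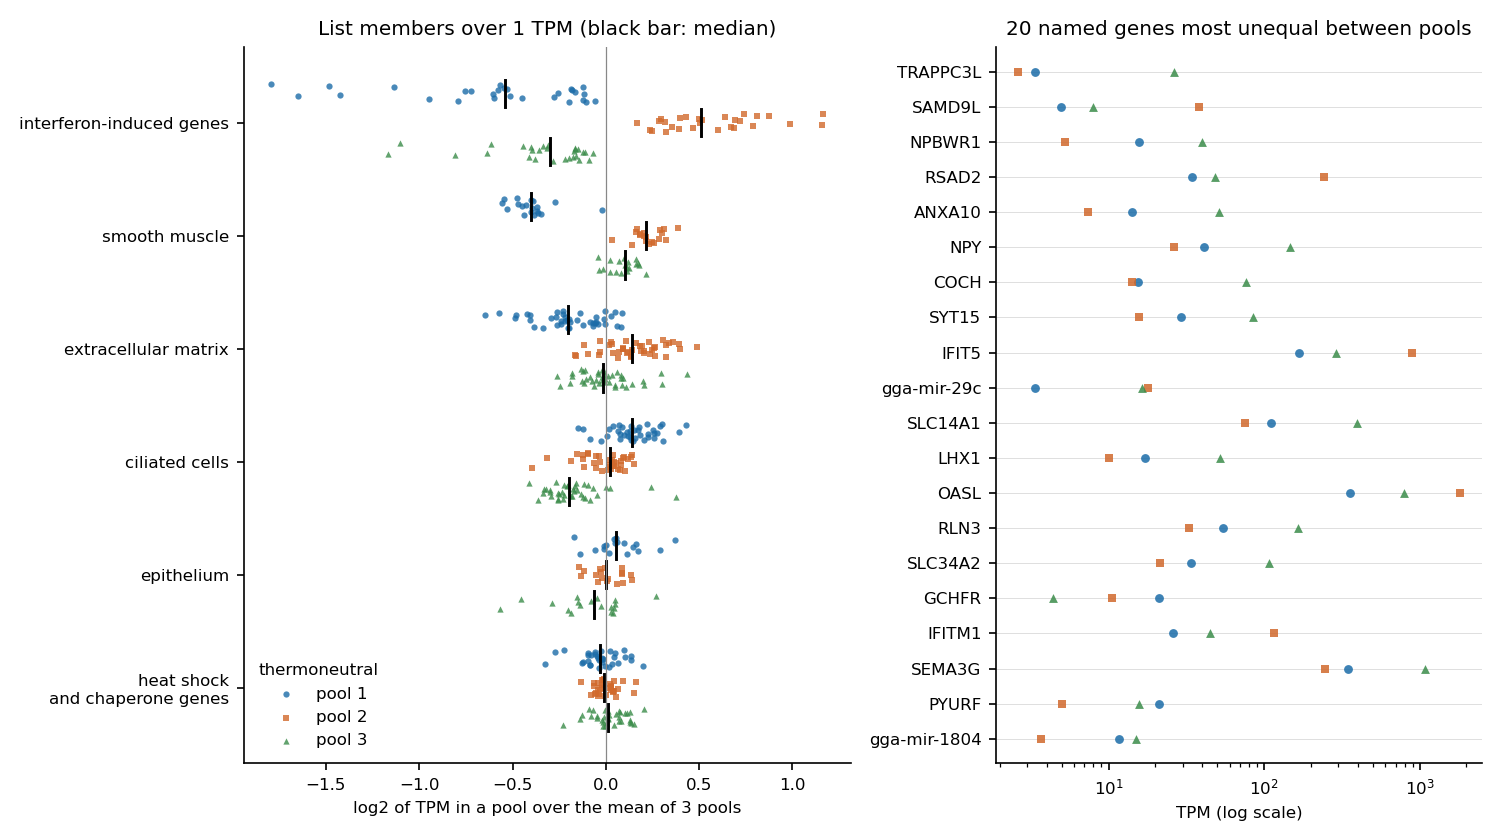
Left, log2 of TPM in a pool over the mean of the 3 thermoneutral pools for each member over 1 TPM of 6 lists, with a black bar at each median; right, TPM (log scale) of the 20 named genes most unequal between pools. Pool 2 lies right of 0 for every interferon-induced member and pool 1 left of 0 for every smooth muscle member, and pool 3 is the highest point of NPY, COCH, SEMA3G and LHX1.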

How the data were processed

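The 3 thermoneutral libraries were analysed, and the columns of the other group were not used. Per the labels' protocols, poly-T beads captured the messenger RNA and dUTP marked the second strand. The authors deposited raw whole-number counts and FPKM values per gene in a table whose header names each library, and 0 columns belonged to no sample. Per the submitters' processing notes, fastp, HISAT2 2.0.5 and featureCounts 1.5.0-p3 were used with the build GRCg6a. Neither the strand setting nor the annotation release is given in the sources used here. Levels of overlapping or antisense genes are uncertain for that reason, and those of near-identical copies because reads may be split among them.

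TPM was computed by rescaling the deposited FPKM to a sum of 1000000 per library. For 37.5% to 37.6% of rows with counts the FPKM rested on a length shorter than the deposited gene length by over 1%, down to 0.213 of it, with the same ratio in every library. Levels were therefore also computed over the deposited length. The spread between pools is the ratio of highest to lowest TPM among rows averaging at least 1 TPM, with 2-fold as the limit. The biological coefficient of variation came from edgeR 4.0.16 in R 4.3.3 (TMM, filterByExpr, intercept only) on the counts and was tested on simulated data. Pools differed beyond counting error, so none was counted as a copy of another. Tables were made with Python 3.11.15, pandas 2.3.3 and numpy 2.4.6. No test was run and no p-value is given, since there is a single group. Limits from 0 counts cover counting error only.

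Of the rows 12494 carry a symbol in the file, 690 more took one from RefSeq (assembly GRCg7b, used for names only), and 7101 have none. The members and the 37 lists (17 marker lists, 20 function lists, 1012 genes entered, 808 with a row) were chosen with earlier results of these data known. Named are the 25 highest rows with a symbol, up to 10 members per list by level and those under 1 TPM, the 20 largest spreads over 10 TPM and 10 smallest over 100 TPM, the 5 rows most set apart by a high or a low pool, the 3 largest ratios per list and a fixed set; any other gene was named because a result turned on it. Not every gene named by the rule is reported here.

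Alternatives were TMM-scaled and relative-log-expression-scaled CPM, protein-coding rows only, no mitochondrial rows, rows of at least 200 bases, the median over pools, other level limits and pseudocounts, and each pool left out in turn.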

Additional observations from a re-analysis of the deposited data

How the results depend on the processing

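The count of rows averaging at least 1 TPM was 15247 and ran from 12995 (protein-coding rows only) to 15273 over the alternatives tried, and the count of list genes over 1 TPM was 707 and ran from 578 to 708. The 1382 rows that were 2-fold apart between pools became 248 with a mean of at least 10 TPM in place of 1 TPM, since low rows are left out, and 675 to 837 when 1 pool was left out, since the ratio of a row cannot grow over fewer pools; the other settings gave 976 to 1398. Under the other scalings and row sets 28 of 28 interferon-induced genes stayed highest in pool 2. The counts were 19 of 19 smooth muscle genes lowest in pool 1, and 30 to 33 of 38 ciliated genes lowest in pool 3. Each of these settings multiplies a pool by 1 factor for all genes, so only the scale was varied. Leaving out a pool other than the one in question could not lower these counts, and it gave 34 or 35 ciliated genes. Of the mean levels of 560 named genes, 20 moved by over 1.5-fold without pool 3 (at most 3.60-fold), 9 without pool 2 (2.65-fold) and 1 without pool 1 (1.61-fold), 17 with the median over pools (3.203-fold) and 21 over the deposited gene length (2.74-fold); the cause was not tested. TMM-scaled CPM per kilobase is on another scale and also uses the deposited gene length. It moved all 560, by at most 5.28-fold. The use of the deposited length, the limit of 200 bases and the other scalings of the list orders were added after the data were seen. No paired analysis was possible because a single group of pools was described and nothing was compared between groups. With 3 pools of 4 hens, variation between single hens cannot be seen, and rows between 1 and 10 TPM carry counting error above the spread of the higher rows.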
